A study of Mus musculus with 4 samples.

Results

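The comparison was of the array labelled Lgr5-Hi against the array labelled Lgr5-Med within Zip7 KO mice, gene by gene. Its members were 2 of the 4 arrays of the series, taken by their titles, and all genes with a probe set that names 1 symbol, which gave 19938 genes. Of these, 12114 were above an expression floor on at least 1 of the 2 arrays and were compared, and the other genes have no difference given here. The arrays hold RNA of epithelial cells sorted from crypts of the adult mouse small intestine. Zip7 KO mice carried floxed alleles on both copies of Slc39a7, the gene of ZIP7 (Zip7flox/flox). Control mice carried 1 floxed copy (Zip7flox/+) and are therefore expected to have lost 1 copy as well. Mice of both genotypes carried villin-CreERT2, a tamoxifen-dependent recombinase driven in the intestinal epithelium, and Lgr5-EGFP-ires-CreERT2, which places a green fluorescent reporter and the same kind of recombinase under the Lgr5 gene. All received tamoxifen for 2 days. The titles write Lgr5-Mid for what the source names write as Lgr5-Med, the name kept here. How many mice went into an array is not stated, nor whether both fractions came from the same mice.

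Lgr5 is a receptor for R-spondins that strengthens Wnt signalling, and in the intestine it marks the cycling stem cells at the crypt base. Their progeny divide as transit-amplifying cells and mature into absorptive enterocytes or into secretory Paneth, goblet, enteroendocrine and tuft cells. ZIP7 exports zinc from the ER (endoplasmic reticulum) and the Golgi into the cytosol, and its loss is known to disturb protein folding in the ER. Cells answer misfolded ER protein with the unfolded protein response, in which the sensors IRE1, PERK and ATF6 raise chaperones and degradation factors and slow translation.

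Each group was 1 array, so there is no spread between animals, no difference was tested, and differences are described by their size. A level is a deposited log2 value, and a difference is the log2 level in the array labelled Lgr5-Hi minus that in the array labelled Lgr5-Med, so that 1 is 2-fold. Where a gene lay below the floor on 1 array, the floor of that array, between 6.10 and 6.25, took its place and the difference is given as a bound. The array number limits the precision, and the Zip7 KO arrays correlated at r = 0.988 over probe sets, which are not independent replicates. Both arrays came from cells that expressed Y-linked genes and had Xist below the floor, so sex did not differ between them, whereas the control arrays had Xist levels of 11.64 and 11.84. Sex and genotype therefore cannot be told apart wherever Zip7 KO is set against control.

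The RNA of Lgr5 ran against the fraction labels. It was at 7.93 in the Zip7 KO array labelled Lgr5-Hi and at 11.24 in the one labelled Lgr5-Med, a difference of -3.31, and at 7.79 and 10.97 in the control arrays, a difference of -3.18. Directions below are those of the labels as deposited, and an exchange of the labels would turn the sign of each. Epcam, an adhesion molecule of all intestinal epithelium, was at 11.62 and 11.66 in the Zip7 KO arrays and differed by -0.04. Ptprc, the pan-leukocyte gene for CD45, was below the floor on both, at 5.96 and 6.04. In sorted bulk cells a smaller number of cells of a type and less RNA per cell cannot be told apart.

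In Zip7 KO, 227 of the 12114 genes compared were 2-fold or more higher in the array labelled Lgr5-Hi (1.87%). Another 91 were 2-fold or more lower (0.751%), so that 71.4% of these 318 were higher. Hormone genes stood at the top, with somatostatin (Sst) at 3.67, cholecystokinin (Cck) at 3.48 and the gastric inhibitory polypeptide gene Gip at 3.47. Stem cell genes stood at the bottom, with Lgr5 at -3.31, the gastrokine Gkn3 at -2.39 and the urea transporter Slc14a1 at -2.38. At 4-fold there were 20 higher and 4 lower genes. The median over all genes was -0.0045 and their standard deviation 0.38, with 5967 higher and 6143 lower. Counts at 2-fold in the gene lists below are to be read beside the 1.87% and 0.751% over all genes.

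The control pair of arrays, which shares no array with the Zip7 KO pair, gave fewer genes past 2-fold. Of 12248 genes, 82 were higher by this size (0.669%) and 64 lower (0.523%). The balance in control moved with the scaling, to 65 higher and 88 lower after median centring and 102 and 51 after removal of a loess trend on level. Of 11958 genes compared in both genotypes, 218 were 2-fold higher in Zip7 KO and 81 in control, and 66 in both, which is 30.3% of the former and 81.5% of the latter. Among lower genes these numbers were 90, 64 and 52, or 57.8% and 81.2%. Of all 308 genes past 2-fold in Zip7 KO, 307 had the same sign in control. This count includes the genes past 2-fold in both genotypes, whose sign was the same by that definition. The 218 higher genes had a median of 1.25 in Zip7 KO, which chose them, and of 0.69 in control. The 81 genes 2-fold higher in control, chosen the other way round, had medians of 1.53 in Zip7 KO and 1.27 in control, and 45 of them differed more in control. The 90 lower genes had medians of -1.17 in Zip7 KO and -1.05 in control, and the 64 chosen in control -1.20 and -1.18. Over all 11958 genes the differences correlated at r = 0.776, a description over genes of 4 arrays normalised by the authors.

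**Figure D1:**
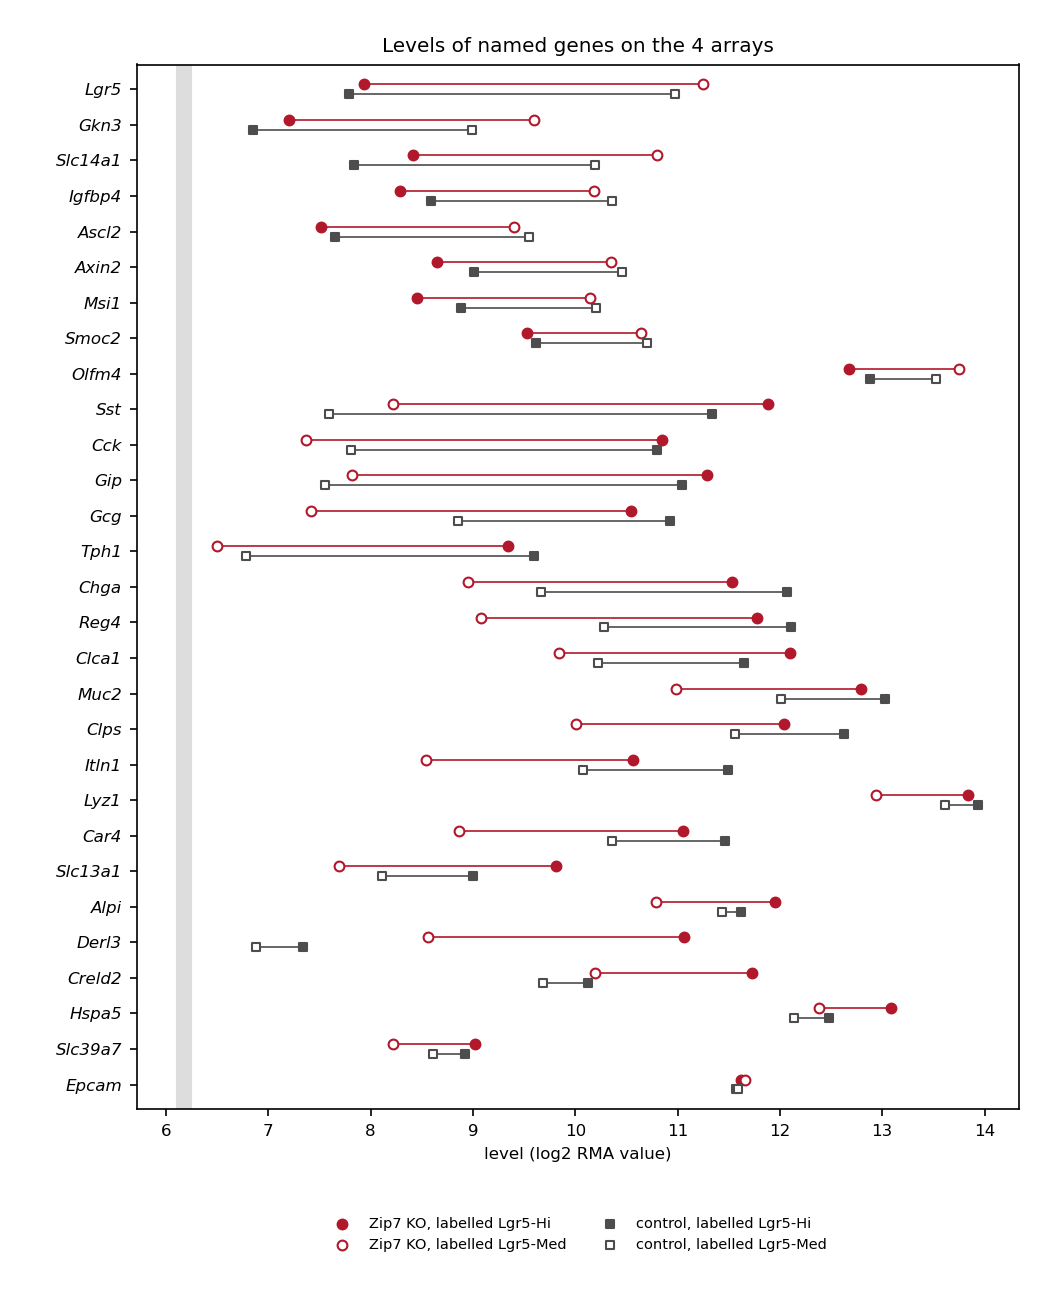
Log2 levels (x axis) of 29 named genes on the 4 arrays, with filled symbols for the label Lgr5-Hi, open symbols for Lgr5-Med, circles for Zip7 KO, squares for control and lines joining the 2 arrays of a genotype. The grey band spans the floors of the 4 arrays. Stem cell genes from Lgr5 to Olfm4 are lower in the arrays labelled Lgr5-Hi, hormone genes from Sst to Chga are higher, and Derl3 lies further to the right in Zip7 KO, at 11.06 and 8.56 against 7.34 and 6.88.

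**Figure D2:**
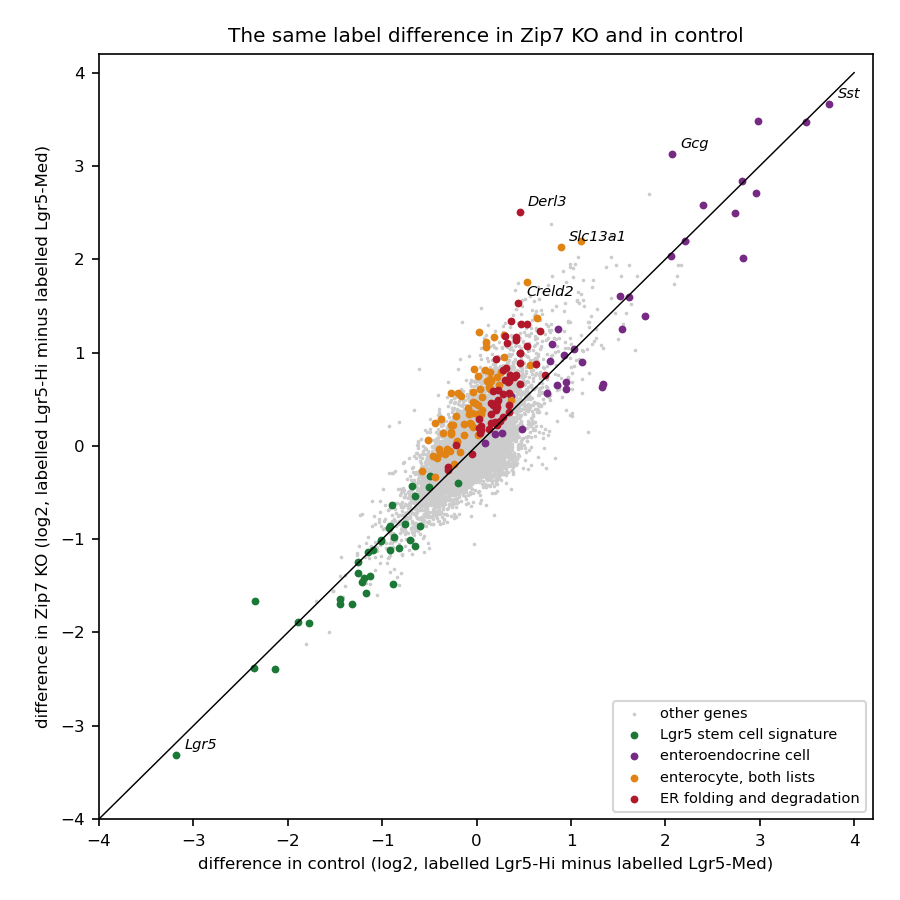
The difference labelled Lgr5-Hi minus labelled Lgr5-Med in Zip7 KO (y axis, log2) against the same difference in control (x axis, log2) for the 11958 genes compared in both, with members of 6 gene lists in colour. Stem cell genes (green) and enteroendocrine genes (purple) lie near the line of equal differences, while enterocyte genes (orange) and ER genes (red) lie above it.

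The stem cell signature was lower as a whole in the Zip7 KO array labelled Lgr5-Hi. All 36 measured members were compared, all 36 were lower, and 25 were at least 2-fold lower, with a median of -1.13 beside -0.0045 over all genes. The bHLH factor Ascl2, which specifies these stem cells, was at 7.51 and 9.40 in Zip7 KO, a difference of -1.89, and at 7.65 and 9.54 in control, also -1.89. The Wnt feedback inhibitor Axin2 differed by -1.70 (8.65 and 10.35), the RNA-binding protein gene Msi1 by -1.69 (8.45 and 10.14) and the insulin-like growth factor binding protein gene Igfbp4 by -1.90 (8.28 and 10.18). In control Axin2, Msi1 and Igfbp4 differed by -1.44, -1.32 and -1.77, each less far below 0 than in Zip7 KO.

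Other members of the signature had smaller differences than Lgr5. Olfm4, a secreted glycoprotein of the crypt base, was at 12.68 and 13.75 in Zip7 KO, a difference of -1.07, and at 12.88 and 13.53 in control, a difference of -0.65. Smoc2, a matricellular protein of stem cells, differed by -1.11 (9.53 and 10.64) and in control by -1.09. Cdca7, a nuclear protein of dividing cells, differed by -1.58 and in control by -1.17, and Rgmb, a co-receptor for bone morphogenetic proteins, by -1.64 and -1.44. Cyp2e1, a cytochrome P450 of the signature, was among the members whose difference was smaller in Zip7 KO, at -1.67 against -2.35. The list had a median of -1.01 in control, and 24 of its 36 members lay further below 0 in Zip7 KO than in control. Over all 12404 genes, the difference in Zip7 KO was below that of control for 40.1% and above it for 59.9%. Fstl1, a secreted follistatin-like protein, was below the floor in the Zip7 KO array labelled Lgr5-Hi and lower by a bound of -0.70.

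Several of the largest differences outside the list were of the same sign. Sorbs2, a cytoskeletal adaptor, was at 7.50 and 9.62, a difference of -2.12, and the matrix proteoglycan gene Prelp at 8.24 and 10.24, a difference of -2.0. The secreted Wnt antagonist Sfrp5 differed by -1.56, the kinase Hunk by -1.55 and the serotonin receptor Htr4 by -1.60. Ifitm3, an interferon-induced membrane protein gene, was high on both arrays, at 11.21 and 12.69, and differed by -1.49 against -0.82 in control. Reserve stem cell markers, a list of genes proposed for slower-cycling crypt cells, had 7 of 10 members lower and a median of -0.30, or -0.20 with members below the floor set at it. Among them Lrig1, an inhibitor of ERBB receptors, differed by -0.88, the homeodomain protein gene Hopx by -0.41 and the keratin gene Krt19 by 0.56.

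Genes of Wnt feedback and targets were more often lower than higher. Of 31 measured genes 27 were compared, 19 were lower and 8 at least 2-fold lower, with a median of -0.38. The 8 were Ascl2, Axin2, Tnfrsf19, Cd44, Rnf43, Sox9 and Ephb3, all of them also in the stem cell signature, and Myc, a growth-promoting transcription factor at 9.97 and 11.14 with a difference of -1.17. Rnf43, an E3 ligase that removes Wnt receptors, differed by -1.25 in both genotypes. Receptor genes lay on either side of 0, with Fzd7 at -0.90 and Fzd5 at 0.66. Higher were also the ligand gene Wnt3, expressed in Paneth cells, by 0.37 and the effector gene Tcf7l2 by 0.07; Fzd7 was picked from the list after its value was seen.

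Eph receptors and ephrins, which position cells along the crypt by contact repulsion, were split as well. The receptor gene Ephb3 was at 8.09 and 9.18 in Zip7 KO, a difference of -1.10, while the ligand gene Efnb2 was at 9.20 and 7.38, a difference of 1.82. In control Ephb3 differed by -0.83 and Efnb2 by 0.80. Efnb1 was higher by 0.61, and the ligand genes Efna4 and Efna3 were lower by -0.81 and -0.66. The list of 11 compared genes had a median of 0.18 with 6 higher and 5 lower.

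In the Notch pathway, which keeps crypt progenitors undifferentiated and holds back the secretory fate, 15 of 20 compared genes were lower, with a median of -0.15. The receptors Notch1 and Notch2 differed by -0.88 and -0.73, the target Hes1 by -0.68, the modifier Lfng by -0.67 and Dtx4 by -1.0. The ligand genes Dll4 and Jag1 were higher by 0.50 and 0.35. Atoh1, the factor that Notch represses and that specifies secretory cells, was at 8.82 and 7.79, a difference of 1.03, and at 9.38 and 8.26 in control, a difference of 1.12.

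Genes of the bone morphogenetic protein and TGF-beta pathway, which opposes Wnt higher in the crypt, had a median of -0.06 over 24 genes that turned to 0.0501 with a stricter floor, so no direction is given. Within it the ligand gene Bmp7 differed by -0.93, and the inhibitory Smads Smad6 and Smad7 by 0.50 and 0.56. Genes of EGF receptor signalling were evenly split, 10 higher and 10 lower. There the receptor gene Egfr differed by -0.39 and the phosphatase gene Dusp5, a feedback inhibitor of ERK, by 0.90 (10.17 and 9.28), against 0.39 in control. The ligand gene Ereg was higher in Zip7 KO by 0.69 and lower in control by -0.30, at low levels of 7.33 and 6.64 in Zip7 KO.

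DNA replication genes were mostly lower in the array labelled Lgr5-Hi, by amounts that ran from -0.89 to near 0. Of 50 compared genes of S phase and DNA replication 48 were lower, with a median of -0.45, and none was 2-fold lower; the control median was -0.30. The replicative helicase gene Mcm2 was at 9.36 and 10.25, a difference of -0.89, the clamp loader gene Rfc4 at 9.84 and 10.70, a difference of -0.86, and the primase gene Prim1 at 8.13 and 8.95, a difference of -0.81. The exception past 2-fold was E2f2, a transcription factor of the E2F family, at 8.95 and 7.80, a difference of 1.15 against 0.75 in control. Member by member, the difference in Zip7 KO minus that in control had a median of -0.17 and was below 0 for 39 of 50. Over all genes it was below 0 for 40.1%.

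Mitotic genes differed less. Of 47 genes of G2/M and mitosis 36 were lower, with a median of -0.14, and none reached 2-fold in either direction. Mki67, a marker of cycling cells, was at 10.56 and 10.80, a difference of -0.24, the RhoA activator of cytokinesis Ect2 differed by -0.52 and the kinase gene Aurkb by -0.34. The kinase gene Nek2 and the passenger protein gene Birc5 were higher by 0.27 and 0.23. Cell cycle inhibitors ran the other way, with 17 of 21 higher and a median of 0.26. Cdkn2b, which encodes the CDK4/6 inhibitor p15, was at 8.58 and 7.27, a difference of 1.31 against 0.44 in control, and the growth arrest gene Gadd45a was at 9.30 and 8.23, a difference of 1.06 against 0.19. The retinoblastoma gene Rb1 differed by 0.89, and its relative Rbl1 by -0.72.

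Genes for making ribosomes were lower too. In ribosome biogenesis and RNA polymerase I 40 of 43 were lower, with a median of -0.26, led after Myc by the nucleolar protein gene Rrp1b at -0.83 and the pseudouridine synthase gene Dkc1 at -0.63. Of 36 cytosolic ribosomal proteins 30 were lower, with a median of -0.14 and a range among named members from -0.48 for Rpl14 to 0.23 for Rpl13. Both medians were close to those of control, -0.28 and -0.21. Ribosomal protein genes have many processed copies in the genome, and 9 probe sets name Rpl13 here, so single members are uncertain.

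**Figure D3:**
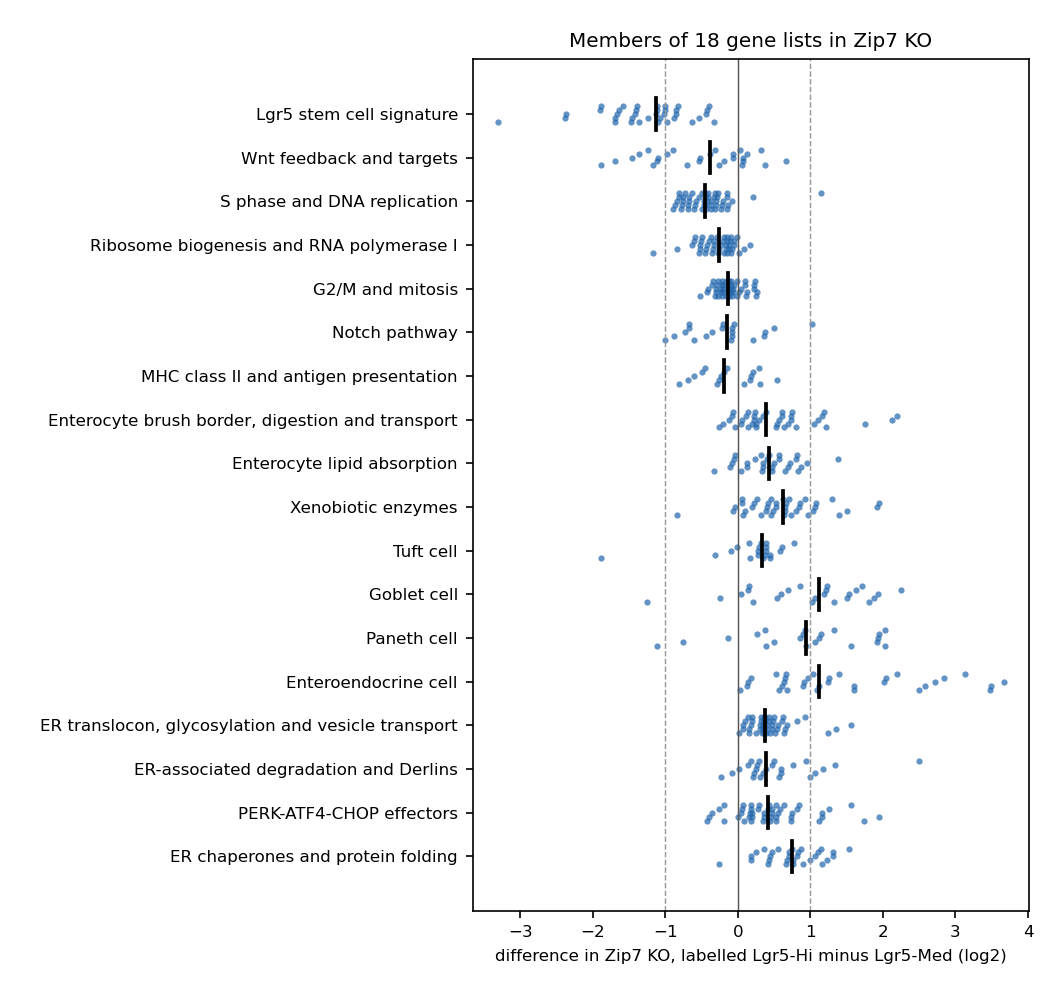
Differences in Zip7 KO (x axis, log2, labelled Lgr5-Hi minus labelled Lgr5-Med) of each compared member (points) of 18 gene lists (y axis), with the list median as a black bar and dashed lines at 2-fold. Members of the stem cell signature lie below 0 with a median of -1.13, and the goblet, Paneth and enteroendocrine lists have medians of 1.12, 0.93 and 1.12.

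Enteroendocrine genes held the largest positive differences. These rare cells release peptide hormones and serotonin into the blood and gut wall. Of 37 measured members 33 were compared and all 33 were higher. The median was 1.12, and 19 members reached 2-fold. Only 24 were above the floor on both arrays, and with the floor in place of lower values 15 reached 2-fold and the median was 0.89. A member that passes only through the array where it is high must differ, so these counts describe the compared genes and are no test. The median in control was 1.33.

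Hormones of several enteroendocrine subtypes were among them. Sst was at 11.89 and 8.22 in Zip7 KO, 12.7-fold apart, and at 11.33 and 7.60 in control. Cck was at 10.85 and 7.37, and Gip at 11.29 and 7.82. Gcg, which encodes proglucagon and hence GLP-1, was at 10.55 and 7.42, a difference of 3.13, and at 10.93 and 8.85 in control, a difference of 2.08, so that the genotypes were further apart in the arrays labelled Lgr5-Med. Ghrl, the ghrelin gene, had the reverse order, with 2.02 in Zip7 KO and 2.82 in control. Tph1, the serotonin-synthesising enzyme of enterochromaffin cells, differed by 2.84 (9.34 and 6.50), and Tac1, which encodes substance P, by 2.71 (9.35 and 6.64).

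Genes of the secretory granule and of the lineage followed the hormones. Chromogranin A (Chga) was at 11.54 and 8.95, a difference of 2.58, chromogranin B (Chgb) at 10.93 and 8.44, a difference of 2.49, and the prohormone convertase gene Pcsk1 at 9.24 and 7.05, a difference of 2.19. Neurod1, a transcription factor that acts in enteroendocrine differentiation, was at 8.72 and 6.68, a difference of 2.04 against 2.06 in control. Reg4, a secreted lectin of enteroendocrine and other secretory cells, was at 11.78 and 9.08, a difference of 2.70 against 1.83 in control. The selenoprotein gene Gpx3, below the floor in the array labelled Lgr5-Med, was higher by at least 1.95.

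Goblet cell genes, which make mucus and its partners, were higher in 22 of 24 compared members, 14 at least 2-fold, with a median of 1.12 (12 and 1.0 with the floor in place of lower values). Muc2, the gel-forming mucin, was at 12.79 and 10.98 in Zip7 KO, a difference of 1.81, and at 13.03 and 12.01 in control, a difference of 1.02. Clca1, a secreted mucus protease, was at 12.09 and 9.85, a difference of 2.25, the protease inhibitor gene Spink4 at 12.19 and 10.31, a difference of 1.88, and guanylin (Guca2a) at 10.85 and 9.15, a difference of 1.70. The control differences of these were 1.42, 0.92 and 1.23. The list also held Clca3a1, a Clca relative, at 7.58 and 8.84, a difference of -1.25, and the factor Foxa3 at -0.25. Creb3l1, an ER-bound transcription factor of secretory cells, was higher by 0.85.

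Paneth cells sit between the stem cells and secrete lysozyme and other antimicrobial proteins. Of 21 compared Paneth genes 18 were higher and 10 at least 2-fold higher, with a median of 0.93 in Zip7 KO and 0.45 in control. Lyz1, the Paneth lysozyme, was at 13.84 and 12.94, a difference of 0.90, and at 13.94 and 13.61 in control, a difference of 0.33. Colipase (Clps) was at 12.04 and 10.01, a difference of 2.03, intelectin (Itln1) at 10.57 and 8.54, also 2.03, and the ribonuclease gene Ang4 at 10.08 and 8.16, a difference of 1.92. In control these differed by 1.07, 1.42 and 1.37. The lower members were Sox9 (-1.11), a progenitor factor that is also in the stem cell list, the receptor gene Fgfrl1 (-0.76) and the ligand gene Wnt11 (-0.14).

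The bactericidal lectin genes Reg3b and Reg3g differed by 1.06 and 1.11 in Zip7 KO and by 0.27 and 0.37 in control. Reg3b was at 10.06 and 9.0 in Zip7 KO against 12.42 and 12.16 in control, so its level was lower on both Zip7 KO arrays. Tuft cells, which sense luminal signals, differed least among the secretory lists. Of 20 compared tuft cell genes 16 were higher with a median of 0.33, and none was 2-fold higher. Dclk1, their kinase marker, was at 8.96 and 8.35, a difference of 0.60 against 1.01 in control, and the actin-binding protein gene Avil differed by 0.78. The list's lowest member, Ascl2, is the stem cell factor above. In control the tuft cell median was 0.54, and 3 of 20 members had a larger difference in Zip7 KO, beside 59.9% of all genes.

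Enterocyte genes were mostly higher in the Zip7 KO array labelled Lgr5-Hi, whereas in control they lay about evenly on either side of 0. Of 39 brush border, digestion and transport genes 33 were higher and 8 at least 2-fold higher, with a median of 0.38. In control 18 were higher and 21 lower, with a median of -0.05. All 39 had a larger difference in Zip7 KO than in control, by a median of 0.49. Over all 12404 genes the median of that quantity was 0.05, and 59.9% had the larger difference in Zip7 KO. With 4 arrays this comparison of differences was not tested.

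Intestinal alkaline phosphatase (Alpi) was at 11.95 and 10.79 in Zip7 KO, a difference of 1.16, and at 11.62 and 11.44 in control, a difference of 0.19. The carbonic anhydrase gene Car4 was at 11.05 and 8.86, a difference of 2.19, and the sulfate transporter gene Slc13a1 at 9.81 and 7.69, a difference of 2.13; in control these were 1.11 and 0.89. The chloride-bicarbonate exchanger gene Slc26a3 differed by 1.76 (10.20 and 8.44) and the amino acid transporter gene Slc7a9 by 1.22 (9.11 and 7.89), against 0.54 and 0.03. For Alpi and Slc7a9 the genotypes stood furthest apart under the label Lgr5-Med, where Zip7 KO was the lower. The bundling protein villin (Vil1) differed by 0.38, and the peptidase Dpp4 and the myosin gene Myo7b by -0.20 and -0.13.

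Lipid absorption genes had the same pattern. Of 29 compared 24 were higher with a median of 0.43, against 13 higher and a median of -0.03 in control. All 29 had the larger difference in Zip7 KO, beside 59.9% of all genes. Mogat2, which rebuilds triglyceride in the enterocyte, was at 10.25 and 9.30, a difference of 0.95, the sterol exporter gene Abcg5 at 10.21 and 9.39, a difference of 0.82, and the kinase gene Pdk4, which restrains glucose oxidation, at 8.99 and 7.61, a difference of 1.37. In control these were 0.29, -0.03 and 0.64. The fatty acid binding protein genes differed in sign, with Fabp1 at 0.34 and Fabp2 at -0.33, the latter at high levels of 12.05 and 12.39.

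Genes of ileal bile acid and vitamin B12 uptake were higher in 15 of 15, with a median of 0.46 against -0.02 in control. The bile acid receptor FXR (Nr1h4) was at 8.06 and 6.81, a difference of 1.25, and the basolateral bile acid exporter gene Slc51a at 9.41 and 8.46, a difference of 0.95. Fabp6, the ileal bile acid binding protein, was at 8.14 and 7.16 in Zip7 KO and 8.97 and 8.93 in control. Iron transport genes were higher in 8 of 9, where ferroportin (Slc40a1) was at 7.22 and below the floor, a difference of at least 1.06, against 0.10 in control. Villus tip genes, switched on late in enterocyte migration, had 11 of 15 higher with a median of 0.19 against -0.07. Among them were the nuclear factor Creb3l3 at 0.79 and the keratin gene Krt20 at 0.61. The 4 lower members were Egfr (-0.39), Nlrp6 (-0.27), Slc28a2 (-0.26) and the purine enzyme gene Ada (-0.06).

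Intestinal transcription factors were mixed, with 14 of 22 higher and a median of 0.21. Hnf4g and Ppara, factors of enterocyte differentiation and fat oxidation, were higher by 0.82 and 0.87, whereas Cdx2 and Gata5 were lower by -0.18 and -0.39. Xenobiotic enzymes, many of them enterocyte genes, were higher in 36 of 39 with a median of 0.62 against 0.13 in control. The carboxylesterase gene Ces1f was at 10.05 and 8.10, a difference of 1.95, the aldo-keto reductase gene Akr1c19 at 9.80 and 7.89, a difference of 1.91, and the glutathione transferase gene Gsta4 at 9.57 and 8.07, a difference of 1.5. These families are made of close relatives, and probes can be shared among them. Ces1d, another carboxylesterase, was lower by -0.84.

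**Figure D4:**
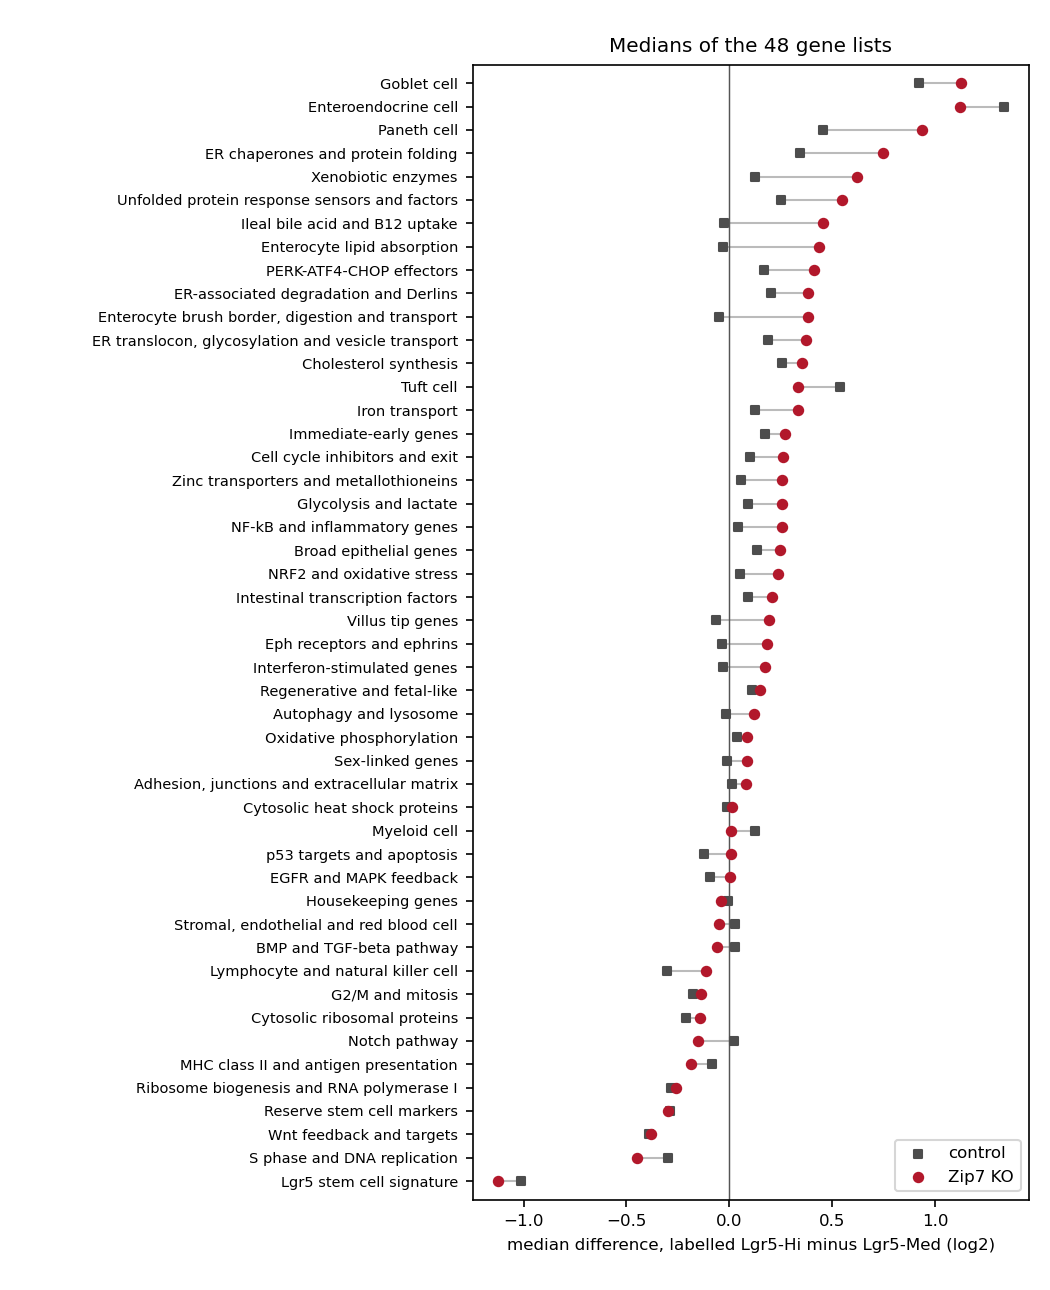
Median difference (x axis, log2, labelled Lgr5-Hi minus labelled Lgr5-Med) of the 48 gene lists (y axis) in Zip7 KO (circles) and control (squares), ordered by Zip7 KO. In Zip7 KO 35 medians are above 0 and 13 below, and the enterocyte, bile acid and xenobiotic lists lie to the right of their control values. The medians of the BMP and TGF-beta, myeloid, p53 and housekeeping lists changed sign under at least 1 alternative setting.

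ER genes were higher in the Zip7 KO array labelled Lgr5-Hi, and more so than in control. Of 30 compared ER chaperones and folding enzymes 29 were higher and 9 at least 2-fold higher, with a median of 0.75; in control the median was 0.34 and none of 31 reached 2-fold. All 31 genes above the floor on any array had the larger difference in Zip7 KO, beside 59.9% of all 12404 genes. Goblet, Paneth and enteroendocrine markers, whose cells fold much secreted protein, were also mostly higher in that array. Member by member, the difference in Zip7 KO minus that in control had a median of 0.19 for goblet and 0.50 for Paneth genes. That median was -0.06 for enteroendocrine and -0.20 for tuft cell genes. The summed level of the goblet list was 15.71 and 14.47 in Zip7 KO and 15.74 and 14.85 in control, that of the Paneth list 15.64 and 14.78 against 16.09 and 15.64, and that of the enteroendocrine list 14.47 and 12.36 against 14.64 and 12.55. Their part in the ER differences was not tested.

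Hspa5 (BiP), the main ER chaperone of the Hsp70 family, was at 13.09 and 12.39 in Zip7 KO, a difference of 0.70, and at 12.48 and 12.14 in control, a difference of 0.34. Creld2, a secreted ER stress protein with disulfide isomerase activity, was at 11.73 and 10.19, a difference of 1.54, and at 10.12 and 9.68 in control, a difference of 0.44. Its level in the Zip7 KO array labelled Lgr5-Med was thus above that of both control arrays. Hyou1, a large Hsp70 relative, was at 11.15 and 9.84, and Dnajc3, a co-chaperone that inhibits PERK, at 10.54 and 9.23, each with a difference of 1.31 against 0.53 and 0.47 in control. Sdf2l1, a co-chaperone in the BiP complex, and Manf, a secreted ER stress protein, differed by 1.23 and 1.17. Prdx4, an ER peroxidase, was the single lower gene, at -0.26.

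ER-associated degradation extracts misfolded proteins and hands them to the proteasome. Of its 25 genes 23 were higher and 4 at least 2-fold higher, with a median of 0.38 against 0.20 in control. Derl3, a Derlin of the retrotranslocation channel found mainly in secretory cells, was at 11.06 and 8.56, a difference of 2.50 (5.67-fold), and at 7.34 and 6.88 in control, a difference of 0.46. The ubiquitin ligase gene Syvn1 was at 10.64 and 9.31, a difference of 1.33, and its partner Sel1l at 10.38 and 9.21, a difference of 1.17, against 0.37 and 0.30. Herpud1, a scaffold of that ligase, differed by 0.93 (11.74 and 10.81). Erlec1 and Rnf139 were lower by -0.23 and -0.08.

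**Figure D5:**
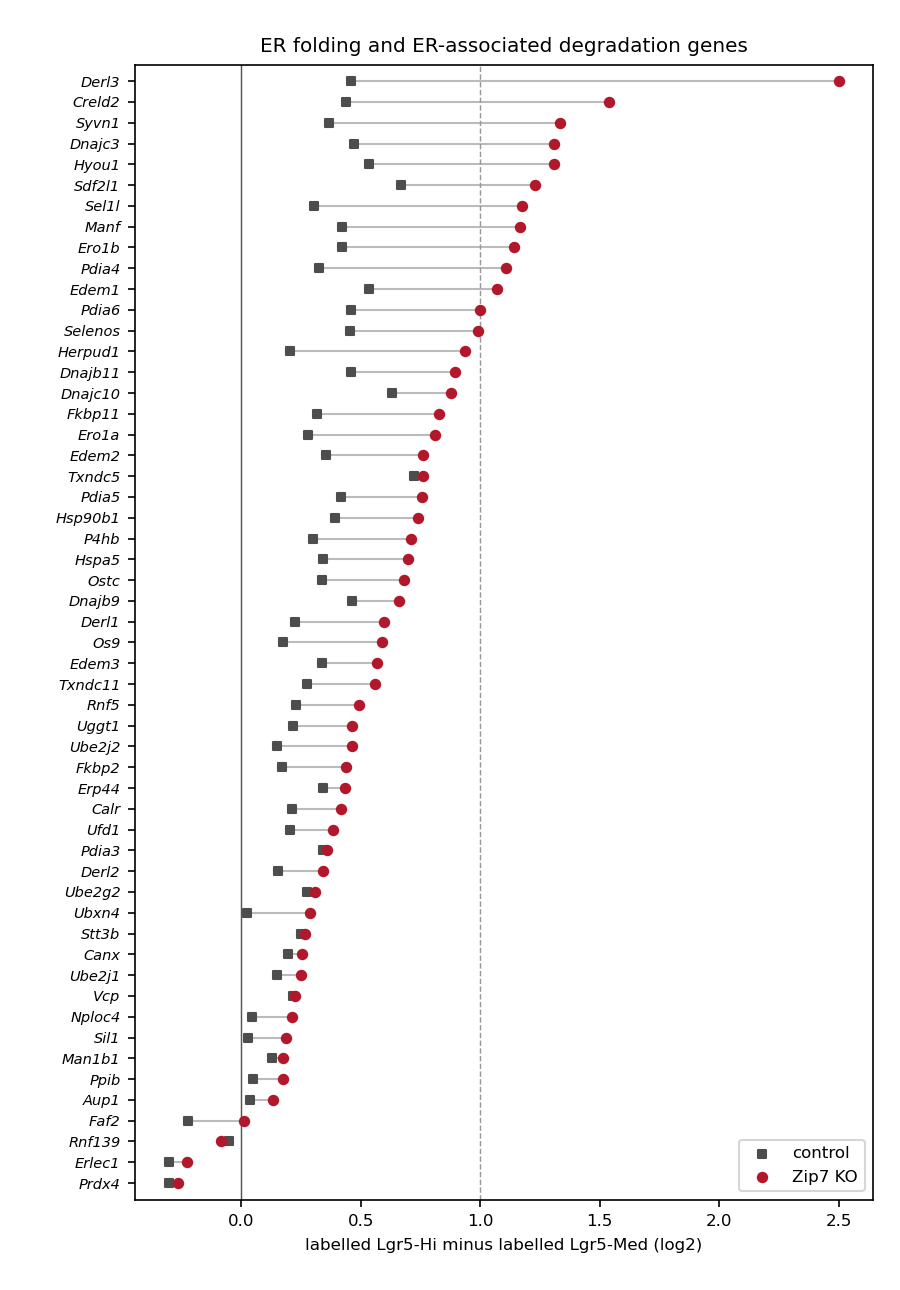
Differences (x axis, log2, labelled Lgr5-Hi minus labelled Lgr5-Med) of the compared genes of ER folding and ER-associated degradation (y axis) in Zip7 KO (circles) and control (squares), joined by a line for each gene, with a dashed line at 2-fold. The Zip7 KO value lies to the right for all but Rnf139, and the widest gap is that of Derl3, 2.50 against 0.46.

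The promoters of these genes are shown because the ER stress response element, to which ATF6 and XBP1 bind with NF-Y, lies in several of them. Sequences are the RefSeq windows of GRCm38.p6, from 250 bases before to 50 after the gene's start, 5′ to 3′ on the gene's strand, and capitals mark a match to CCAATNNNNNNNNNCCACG on either strand. They are Derl3 at chr10:75893148-75893447 (+), Creld2 at chr15:88819396-88819695 (+) and Hspa5 at chr2:34771840-34772139 (+).
Derl3: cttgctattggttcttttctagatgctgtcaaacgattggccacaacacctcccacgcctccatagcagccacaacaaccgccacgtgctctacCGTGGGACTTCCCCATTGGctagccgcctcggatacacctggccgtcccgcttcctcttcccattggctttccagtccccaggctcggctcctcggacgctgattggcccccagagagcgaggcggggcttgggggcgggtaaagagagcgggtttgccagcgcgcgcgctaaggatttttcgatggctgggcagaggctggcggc
Creld2: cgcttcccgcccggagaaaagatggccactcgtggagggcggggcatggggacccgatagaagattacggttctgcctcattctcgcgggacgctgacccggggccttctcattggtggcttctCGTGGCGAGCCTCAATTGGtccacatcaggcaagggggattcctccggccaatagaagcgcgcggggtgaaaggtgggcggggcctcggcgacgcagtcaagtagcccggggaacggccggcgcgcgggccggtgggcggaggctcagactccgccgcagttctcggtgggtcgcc
Hspa5: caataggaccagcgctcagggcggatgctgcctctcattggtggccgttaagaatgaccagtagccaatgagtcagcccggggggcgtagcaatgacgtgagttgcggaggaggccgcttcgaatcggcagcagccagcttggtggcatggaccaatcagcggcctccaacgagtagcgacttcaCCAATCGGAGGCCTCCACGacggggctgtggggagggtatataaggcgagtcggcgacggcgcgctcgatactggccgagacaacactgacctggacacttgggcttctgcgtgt
The match starts at position -156 from the start site in Derl3, -126 in Creld2 and -65 in Hspa5, with the first 2 on the opposite strand. The element was found in 39 of 32851 windows (0.119%), in 8 of 26 windows of ER chaperone genes (30.8%) and in 2 of 19 of ER-associated degradation genes (10.5%). Of 17 compared genes that hold it 16 were higher in Zip7 KO, 6 at least 2-fold, with a median of 0.69, against 0.34 and none at 2-fold in control. Over all genes compared 49.3% were higher in Zip7 KO and 1.87% at least 2-fold higher. These 17 overlap the ER lists, and a match is a description of letters and not of binding.

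Transport steps before and after folding followed with smaller differences. All 48 compared genes of the translocon, glycosylation and vesicle transport were higher, 3 at least 2-fold, with a median of 0.37 against 0.19 in control. Kdelr3, a receptor that returns ER proteins from the Golgi, was at 8.19 and 6.62, a difference of 1.57 against 1.13, the COPII coat gene Sec24d at 9.79 and 8.44, a difference of 1.35 against 0.58, and Gmppb, which makes GDP-mannose, at 8.16 and 6.92, a difference of 1.24 against 0.77. Ssr3, a translocon-associated protein, differed by 0.67.

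Among the sensors and factors of the unfolded protein response 14 of 16 were higher, with a median of 0.55 against 0.25. Atf6, a sensor that is cleaved to a transcription factor, was at 9.62 and 8.45, a difference of 1.17 against 0.38, and Ern1, which encodes IRE1 alpha, at 9.36 and 8.36, a difference of 0.99 against 0.63. Ern2, the IRE1 beta of secretory epithelium, differed by 1.15 against 0.88. Xbp1, whose RNA IRE1 splices, was at 11.18 and 10.63, a difference of 0.54, and Atf4, which PERK controls through translation, at 9.40 and 8.85, a difference of 0.55. Splicing and translation are not measured by these values.

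Effectors of the PERK-ATF4-CHOP arm, which adjusts amino acid supply and can lead to cell death, were higher in 40 of 47, 7 at least 2-fold, with a median of 0.41 against 0.17 in control. With the floor in place of lower values 5 reached 2-fold. Ddit3, the CHOP gene, was at 9.26 and 8.51, a difference of 0.75 against 0.49. Chac1, which degrades glutathione, was at 8.95 and 7.39, a difference of 1.57, and at 7.80 and 7.31 in control, a difference of 0.49. The pseudokinase gene Trib3 was at 7.90 and 6.79, a difference of 1.11 against 0.40, the glycine transporter gene Slc6a9 at 9.68 and 8.42, a difference of 1.26 against 0.63, and Nupr1, a stress-induced nuclear protein that is also in the Paneth list, at 10.25 and 8.31, a difference of 1.95 against 1.04.

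The cystine transporter gene Slc7a11 was above the floor on 1 of the 4 arrays, the Zip7 KO array labelled Lgr5-Hi, at 7.24, so its difference was at least 1.08. Not all genes of the PERK-ATF4-CHOP list followed. The serine metabolism genes Phgdh and Shmt2 differed by -0.40 and -0.27, and the death receptor gene Tnfrsf10b by -0.42. Sesn2, a stress-induced regulator of mTORC1, was higher by 0.43 in Zip7 KO and lower by -0.30 in control.

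Windows of Chac1 and Slc7a11 are shown for the amino acid response element that ATF4 binds, written TGATGNAA, with matches on either strand in capitals. They lie at chr2:119350992-119351291 (+) and chr3:50443564-50443863 (-).
Chac1: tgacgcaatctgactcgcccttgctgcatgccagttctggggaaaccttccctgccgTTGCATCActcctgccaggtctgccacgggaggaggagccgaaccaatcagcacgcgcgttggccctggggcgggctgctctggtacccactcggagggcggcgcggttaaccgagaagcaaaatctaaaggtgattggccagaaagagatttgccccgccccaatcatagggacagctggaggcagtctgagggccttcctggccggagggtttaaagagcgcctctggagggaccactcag
Slc7a11: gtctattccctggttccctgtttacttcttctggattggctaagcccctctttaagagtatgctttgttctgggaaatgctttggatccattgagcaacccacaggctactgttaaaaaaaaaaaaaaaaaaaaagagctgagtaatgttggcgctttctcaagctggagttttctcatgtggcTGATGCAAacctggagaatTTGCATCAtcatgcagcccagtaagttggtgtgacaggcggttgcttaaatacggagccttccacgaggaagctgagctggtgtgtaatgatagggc
Chac1 holds 1 match, which starts at -193, and Slc7a11 holds 2, which start at -66 and -47. The letters are short, and 1304 of 32851 windows (3.97%) hold them, as do 13 of 36 windows of the PERK-ATF4-CHOP list (36.1%). Compared members of that list with a match differed by -0.35 for Slc1a4 to 1.95 for Nupr1. Chac1 and Slc7a11, whose windows are shown, lay near the top of that range. Over the 247 compared genes with a match the median was 0.04 in Zip7 KO, 10 were 2-fold higher and 3 lower, beside 1.87% and 0.751% of all genes. For comparison, the TCF letters CTTTGAT lie in 3.73% of windows and in 2 of 27 of the stem cell signature (7.41%). Lgr5 and Hyou1 were not among the windows used here.

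Zinc genes differed by less than 2-fold in Zip7 KO. Of 25 compared transporters and metallothioneins 17 were higher and 8 lower, with a median of 0.26. The targeted gene, Slc39a7, was at 9.02 and 8.22 in Zip7 KO, a difference of 0.81, and at 8.92 and 8.61 in control, a difference of 0.31. Whether its probes fall inside the deleted exons is unknown here, so these values do not check the deletion. Slc39a4, the importer of dietary zinc on the brush border, was at 10.42 and 9.61, a difference of 0.81, and at 10.28 and 10.23 in control, a difference of 0.06. The Golgi zinc loader gene Slc30a7 differed by 0.65, the importer gene Slc39a10 by -0.59 against -1.11 in control, and the zinc-induced metallothionein gene Mt1 by -0.28.

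Genes of NRF2 and oxidative stress were higher in 20 of 28, with a median of 0.24. The quinone reductase gene Nqo1 was at 8.57 and 6.92, a difference of 1.65 against 0.70, and malic enzyme (Me1) at 7.94 and 6.82, a difference of 1.12 against 0.94. The NADPH oxidase genes Nox1 and Noxa1 were lower by -0.84 and -0.76. Cytosolic heat shock genes, which answer misfolding outside the ER, were about evenly split with 10 of 18 higher and a median of 0.01. Hspa1a, an inducible Hsp70, was higher by 0.72 and its co-chaperone Bag3 by 0.65, while Hsp90aa1 and Hspe1 were lower by -0.39 and -0.45. Genes of p53 and apoptosis had 14 of 27 higher, and their median of 0.01 turned below 0 after quantile normalisation; the survival gene Bcl2 differed by -0.79 against -0.77.

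Autophagy and lysosome genes had a median of 0.12, with the cargo receptor gene Sqstm1 at 11.05 and 10.20, a difference of 0.85 against 0.31. Immediate-early genes, which respond within minutes to stimulation and to tissue handling, were higher in 20 of 26 with a median of 0.27, among them Ier5 at 0.70 and Klf6 at 0.52, whereas Ccn1 was lower by -0.91. Regenerative and fetal-like genes had 8 of 13 higher, where the annexin gene Anxa2 differed by 1.03 against 0.48 in control. Sprr1a, an epithelial stress gene of that list, differed by 0.15 in Zip7 KO and by 1.18 in control.

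Metabolic lists were mostly higher by small amounts. Cholesterol synthesis genes were higher in 19 of 20 with a median of 0.35 against 0.26, among them the farnesyl diphosphate synthase gene Fdps at 0.63. Glycolysis genes had 14 of 21 higher with a median of 0.26. There the phosphofructokinase gene Pfkp was at 9.99 and 8.53, a difference of 1.46 against 0.80, and the hexokinase gene Hk2 was lower by -0.36. Oxidative phosphorylation genes had 36 of 46 higher with a median of 0.09 and none past 2-fold, from Ndufs4 at -0.34 to Uqcrfs1 at 0.40.

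Few genes of immune and stromal cells were above the floor. Of 28 lymphocyte genes 10 were compared, 4 higher and 6 lower, and the list's summed level was 11.12 and 11.21 in Zip7 KO against 11.87 and 12.26 in control. Cd3e, a CD3 chain gene of the T cell receptor complex, was at 6.98 and 6.87. The granzyme gene Gzmb was at 6.86 and 6.61 against 8.33 and 9.16 in control. Of 21 myeloid genes 7 were compared; their median of 0.01 turned to -0.0368 without a floor. Of 25 stromal, endothelial and red blood cell genes 10 were compared, with 4 higher. The collagen gene Col3a1 was at 6.75 and 6.80. Vimentin (Vim), an intermediate filament gene of stromal and immune cells that was chosen for that list, was at 9.97 and 8.23, a difference of 1.74 against 2.10 in control, with the other named members of the list between -0.21 and 0.04.

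Interferon-stimulated genes had 16 of 23 compared members higher, with a median of 0.18 against -0.03 in control. The factor Irf7 was at 8.50 and 7.56, a difference of 0.94, and at 9.62 and 9.40 in control, a difference of 0.22, so its level was lower on both Zip7 KO arrays. Oas1a, which makes an activator of RNase L, was lower by -0.62. NF-kB and inflammatory genes had 17 of 22 higher, among them the cytokine gene Il18 at 7.98 and 6.83, a difference of 1.15 against 0.18. Antigen presentation by MHC class II, which crypt stem cells are known to carry, was lower, with H2-Eb1 at -0.81, the invariant chain Cd74 at -0.69 (11.07 and 11.77) and their regulator Ciita at -0.50. The proteasome and peptide transporter genes of class I, Psmb8 and Tap1, were higher by 0.30 and 0.53, and the list's median was -0.19.

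Structural genes of the epithelium varied around smaller values. Adhesion and junction genes had 21 of 34 higher with a median of 0.08. The claudin gene Cldn23 was higher by 1.29 (9.0 and 7.72) and Cldn3 by 0.78, whereas Cldn2, a pore-forming claudin of the crypt, was lower by -0.49 and the collagen receptor gene Itga1 by -0.70. Broad epithelial genes were higher in 15 of 17 with a median of 0.25, among them Phgr1 at 1.07 and Cdh17 at 0.48. Housekeeping genes had a median of -0.04 over 23 genes, which turned to 0.005 when probe sets were averaged and to 0 after quantile normalisation. They ranged among named members from -0.36 for Gusb to 0.61 for Reep5, which gives the size of difference seen for genes often taken as constant.

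The difference of Zip7 KO was at least 2-fold above that of control for 40 of 12404 genes (0.322%) and at least 2-fold below it for 4 (0.0322%). Derl3 led, with a gap of 2.04. Of the 40 genes 32 were above the floor on all 4 arrays, as were 2 of the 4. With values below the floor set to it the counts were 35 and 2. Slc13a1, described above, had a gap of 1.23. The sulfotransferase gene Sult6b2 was at 7.89 and 6.56 in Zip7 KO and at 6.65 and 6.80 in control, a gap of 1.49. Reg1, a secreted lectin of the Reg family, was at 10.85 and 9.18 against 10.59 and 10.18, a gap of 1.26, so that the array labelled Lgr5-Med in Zip7 KO stood lowest. The probe set named for the microRNA gene Mir215 was at 8.33 and 6.58 against 7.84 and 7.40. At the other end, those of the 4 genes above the floor on all arrays were Sprr1a, a gene of the cornified envelope, at 7.26 and 7.11 against 8.05 and 6.87, and Gm10139, both with a gap of -1.03.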

How the data were processed

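Gene expression was measured on 4 Affymetrix arrays, 1 for each combination of genotype and fraction label. The values are log2 expression levels of probe sets, deposited after RMA by the authors, per the submitters' processing notes; the log base was taken from the range of the values, 3.08 to 14.6. Software version, array build and the arrays normalised together are unknown here. Of 35557 probe sets, 21789 name 1 gene symbol, 1621 name several and 12147 are not listed in the annotation used, and the first kind was analysed. Where several probe sets name a gene, the one with the highest mean stood for it. Symbols came from GEO's platform annotation, and 21698 of the 21789 probe sets matched the RefSeq table of GRCm38.p6.

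The floor of an array was percentile 95 of the levels of 1207 sensory receptor genes (olfactory, vomeronasal, trace amine), and 11731 to 12099 genes lay above it. A gene was compared if above the floor on at least 1 array of the pair. Genes were counted at 2-fold (1 on the log2 scale), from deposited values, with receptor genes left out, and no test was possible with 1 array a group. A summed level is the log2 of the sum of a list's linear values. The 48 lists hold 1348 symbols, 1239 of them measured. Named were 22 anchor genes, the 20 largest differences in each direction, the 6 largest and the 4 largest of opposite sign in each list, and the 10 largest gaps between Zip7 KO and control in each direction. The comparison, the members, the lists and this rule were chosen with earlier results of these data known. Counting was checked on simulated data. Python 3.11.15, numpy 2.4.6, pandas 2.3.3, scipy 1.17.1, statsmodels 0.14.6 and matplotlib 3.10.9 were used. Alternatives covered scaling, the probe set rule, the floor and the fold.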

Additional observations from a re-analysis of the deposited data

Results flagged for a closer look

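Medians of 4 gene lists had opposite signs in Zip7 KO and control and lay at least 0.25 apart. These differences were not tested. Other lists had opposite signs with a smaller gap, such as interferon-stimulated genes (0.18 against -0.03). The gap between the medians was 0.430 for enterocyte brush border, digestion and transport (0.38 against -0.05), 0.465 for lipid absorption (0.43 against -0.03), 0.480 for ileal bile acid and B12 uptake (0.46 against -0.02) and 0.260 for villus tip genes (0.19 against -0.07).

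Single genes with opposite signs of the deposited differences in the genotypes and a gap past 2-fold were 5, also untested, and 3 of them were above the floor on all 4 arrays. The gap was 1.49 for the sulfotransferase gene Sult6b2 and 1.44 for the acetyltransferase relative Nat8f5. For the granzyme gene Gzmb it was 1.08, from 6.86 and 6.61 in Zip7 KO and 8.33 and 9.16 in control. The other two, the cytochrome gene Cyp2c68 (deposited gap 1.32) and Gm5592 (-1.13), were below the floor on 3 of the 4 arrays, both control arrays among them, so neither their sign in control nor the size of the gap is a measurement. With values below the floor set to it the gaps were 1.0 and -0.37.

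Probe sets left out of the gene comparison also differed between the Zip7 KO arrays. Of 1136 probe sets above the floor that name several genes, 12 were 2-fold higher and 2 lower, against 4 and 0 of 1065 in control. Of 5693 that are not listed in the annotation, 120 were 2-fold higher and 32 lower, against 72 and 27 of 5283 in control. Among the genes compared, 1.87% were 2-fold higher and 0.751% lower in Zip7 KO, and 0.669% and 0.523% in control.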

How the results depend on the processing

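Counts moved with the fold that was asked for. At 1.5-fold 715 genes were higher and 431 lower in Zip7 KO, and 282 and 385 in control. At 3-fold these were 52 and 14 in Zip7 KO, and 24 and 8 in control. Under the 8 other settings, which were quantile normalisation, median centring, removal of a loess trend on level, the mean of probe sets, floors at percentile 90 and 99, no floor, and the floor on both arrays, the Zip7 KO counts ran from 191 to 229 higher and 87 to 92 lower, and the control counts from 65 to 102 and 51 to 88. The larger control count was that of lower genes after median centring (65 and 88) and of higher genes under the others. The 40 genes whose Zip7 KO difference was 2-fold above that of control became 26 after the loess trend was removed, 27 after quantile normalisation and 60 after median centring. The 4 genes below it became 6 after the loess trend was removed, 6 after quantile normalisation and 6 with no floor. They became 2 with the floor at percentile 99, 2 after median centring and 2 with values below the floor set to it. The last alternative was chosen after seeing the data. Its other counts were 203 and 88 in Zip7 KO, 76 and 62 in control, and 35 for the 40. Median centring moved the control median over genes from -0.04 to -0.13.

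Of 384 list medians under alternatives 5 changed sign. These were the BMP and TGF-beta pathway at 0.0501 with the floor at percentile 99, myeloid genes at -0.0368 with no floor, p53 and apoptosis genes at -0.0017 after quantile normalisation, and housekeeping genes at 0.005 with probe sets averaged and 0 after quantile normalisation. The 113 named genes past 2-fold in Zip7 KO kept their sign in 452 of 452 values, and 1 value fell below 2-fold. No paired analysis was possible because each group holds 1 array. The main limits are the single array per group, the unknown number of mice behind it, Lgr5 RNA that ran against the fraction labels, values near the floor, and a difference in sex markers between the genotypes, so that sex and genotype cannot be told apart in any gap between Zip7 KO and control.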

Other observations

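The Clca genes, which encode secreted or membrane proteins and lie close together in RefSeq gene order, differed in sign within Zip7 KO. Clca2 was below the floor on all 4 arrays and was not compared. Clca1 was higher by 2.25, while Clca3a2 was at 8.89 and 10.36, a difference of -1.47, and Clca3a1 differed by -1.25. Clca3b was at 13.22 and 13.84, a difference of -0.61, Clca4b differed by -0.44 and Clca4a by -0.27. All compared Clca genes had the same sign in control, where Clca1 differed by 1.42 and Clca3a2 by -1.18. Clca2, Clca3a2, Clca3b, Clca4a and Clca4b were looked up after their values had been seen, and the Clca genes are close relatives whose probes may be shared.

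Bcl2l15, a relative of the Bcl2 apoptosis regulators, and Ptpn22, a tyrosine phosphatase gene, are neighbours in the same order and were both below the floor in the Zip7 KO array labelled Lgr5-Med alone. In Zip7 KO Bcl2l15 was at 8.08 and below the floor, a difference of at least 1.92, against 7.07 and 6.28 in control. Ptpn22 was at 7.08 and below the floor, at least 0.92, against 6.35 and 6.31. The gaps between the genotypes were therefore at least 1.13 and 0.87. Ap4b1, on the other side of Bcl2l15 and also looked up after its value was seen, differed by 0.50 in Zip7 KO and 0.23 in control.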
